A study of Mus musculus with 26 samples.

Results

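A set of 10 imprinted genes that are expressed in brain was followed through a mouse striatum RNA-seq study of Huntington's disease models. The genes are Magel2, Ndn, Snrpn, Peg3, Sgce, Peg10, Nnat, Dlk1, Plagl1 and Impact. They were taken by symbol from each of the 5 deposited tables, and all 10 have a row in all 5, out of 14833 symbols that have a row in at least 1 table. The genes were chosen by name as imprinted genes, with the group FPKM values and calls of these same tables known. The counts of members below are therefore descriptions and carry no test of their own.

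The study holds 26 libraries of striatum in 9 groups, and each of the 5 tables compares a pair of them. The R6/1 line has, inserted in its genome, exon 1 of human huntingtin with an expanded CAG repeat under the human huntingtin promoter. R6/1 mice were set against wild type mice at 4 weeks and at 8 weeks, with 3 libraries in each group. CHL2 mice, a line with an expanded CAG repeat knocked into the mouse huntingtin gene, were set against wild type mice at 1 year, also with 3 libraries in each group. At 10 weeks, control-AAV R6/1 mice (2 libraries) were set against control-AAV wild type mice (2 libraries), and Elk-1-AAV R6/1 mice (4 libraries) against the same control-AAV R6/1 libraries. AAV is a viral vector: the control vector is named mCherry in the tables, and the other delivers Elk-1, a transcription factor of the ETS family. All groups at 10 weeks therefore received a vector, and all Elk-1-AAV mice carry the R6/1 transgene. The labels do not state sex, CHL2 zygosity, the vector's promoter or whether animals were pooled.

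Imprinted genes are transcribed mainly from the chromosome copy inherited from 1 parent, a choice marked by CpG methylation set in the germ line. Many lie in clusters that share a control element, and the products of a number of them act in the hypothalamus, in feeding, growth and maternal care. All 10 genes here are expressed from the paternal copy in mouse. The tables do not separate the parental copies, so each value below is the sum over both.

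The genes lie in 7 regions, with positions as listed on mm9. Ndn (chr7:69493162-69494813) and Magel2 (chr7:69521864-69526526) encode MAGE family proteins and are 27050 bases apart in the region whose human counterpart is lost from the paternal chromosome in Prader-Willi syndrome. Snrpn (chr7:67127386-67285105), which encodes the neuronal splicing protein SmN, lies 2208056 bases from Ndn in the same region. Peg3 (chr7:6658670-6683130) encodes a zinc finger protein and lies elsewhere on chromosome 7. Sgce (chr6:4624349-4697204) encodes epsilon-sarcoglycan, whose human gene is mutated in myoclonus-dystonia, and Peg10 (chr6:4697305-4710516), a gene derived from a retrotransposon, is separated from it by 100 bases. Nnat (chr2:157382097-157392097) encodes neuronatin, a small proteolipid of the endoplasmic reticulum. Dlk1 (chr12:110691032-110701546) encodes a membrane protein related to the Notch ligands. Plagl1 (chr10:12810593-12851501) encodes a zinc finger transcription factor also called Zac1. Impact, the last of the 10, encodes an inhibitor of the GCN2 kinase.

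Promoter windows of 4 genes are shown because imprinting acts through CpG methylation near gene starts. These genes, 2 of them neighbours, were also called changed in different numbers of tables, as given below. Each window runs from 250 bases before to 50 bases after the start in RefSeq on GRCm38.p6, on the plus strand, with every CpG in capitals. The windows are chr7:62376729-62377028 for Magel2, chr7:62348027-62348326 for Ndn, chr12:109452573-109452872 for Dlk1 and chr2:157559828-157560127 for Nnat.
Magel2: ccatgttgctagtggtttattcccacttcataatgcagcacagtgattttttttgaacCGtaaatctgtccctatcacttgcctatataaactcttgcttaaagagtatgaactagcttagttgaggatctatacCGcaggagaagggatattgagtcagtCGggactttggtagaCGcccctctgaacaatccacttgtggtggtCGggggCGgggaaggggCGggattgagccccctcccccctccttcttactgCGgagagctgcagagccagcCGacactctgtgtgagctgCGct
Ndn: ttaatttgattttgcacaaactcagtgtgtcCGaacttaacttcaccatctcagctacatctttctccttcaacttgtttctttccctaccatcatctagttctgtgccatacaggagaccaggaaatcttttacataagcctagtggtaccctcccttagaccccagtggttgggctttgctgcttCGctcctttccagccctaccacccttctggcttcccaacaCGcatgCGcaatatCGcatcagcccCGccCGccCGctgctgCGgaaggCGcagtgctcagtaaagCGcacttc
Dlk1: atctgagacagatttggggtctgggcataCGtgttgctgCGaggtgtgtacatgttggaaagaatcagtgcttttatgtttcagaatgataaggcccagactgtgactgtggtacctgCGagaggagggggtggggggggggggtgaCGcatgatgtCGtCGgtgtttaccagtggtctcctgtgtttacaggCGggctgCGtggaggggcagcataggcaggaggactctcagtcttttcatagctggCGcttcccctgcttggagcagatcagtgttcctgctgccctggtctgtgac
Nnat: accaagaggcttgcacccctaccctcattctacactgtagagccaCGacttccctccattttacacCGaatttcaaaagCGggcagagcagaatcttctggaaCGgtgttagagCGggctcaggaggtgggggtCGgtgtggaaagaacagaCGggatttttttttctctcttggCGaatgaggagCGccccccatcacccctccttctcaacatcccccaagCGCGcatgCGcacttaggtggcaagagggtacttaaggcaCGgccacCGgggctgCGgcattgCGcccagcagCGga

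The Magel2 window holds 10 CpG, that of Ndn 11, that of Dlk1 9 and that of Nnat 17, against a median of 7 over 32851 mouse promoter windows of the same length. RefSeq windows were read for 7 of the 10 genes. None was found for Peg10 and Sgce. Windows on chromosome 18, where Impact lies, were left out, so Impact was not searched. The Peg3 window holds 13 CpG, that of Plagl1 26, and the 4 Snrpn windows hold 2, 3, 4 and 7. The letters CCGGAAG are a core of the sites bound by ETS factors such as Elk-1. They were searched on both strands and are in none of the 10 windows of these 7 genes, and in 8.86% of all windows. The letters GGGGCCCC, part of the site bound by Plagl1, are in the Peg3 window, starting at base 50 from its 5′ end, and in 1.08% of all windows. The cyclic AMP response letters TGACGTCA are also in the Peg3 window, starting at base 73, and in 1.79% of all windows. Methylation was not measured in these data.

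Each table gives 1 pooled level per group in FPKM (fragments mapped to a gene, scaled for transcript length and for the depth of the library), so no SD can be given. The level is per transcript length, so genes can be set beside each other, but each table was normalised separately. Over the 9 groups, Snrpn was the most abundant of the 10 genes by its median level, at 281 FPKM, with a range of 233 to 329 FPKM. Nnat followed with a median of 209 FPKM (146 to 375), Ndn with 132 FPKM (97.2 to 244) and Impact with 108 FPKM (90.8 to 128). The ranges of neighbours in this order overlap (Snrpn and Nnat, Nnat and Ndn, Ndn and Impact), while Impact was below the lowest value of Snrpn and of Nnat in all 9 groups. Peg3 had a median of 67.8 FPKM and the widest spread among the abundant genes, 19.4 to 86.0 FPKM, with its 3 lowest values in the 10-week groups. Those groups differ from the others in age, vector and table at once, which cannot be told apart. Sgce stood at 19.8 FPKM (17.4 to 24.8), Peg10 at 15.1 FPKM (5.33 to 23.9) and Dlk1 at 11.9 FPKM (5.45 to 17.5). Plagl1 stood at 7.33 FPKM (4.62 to 12.1). Magel2 was the least abundant, at 3.33 FPKM (1.23 to 5.73). The highest group value was 4.67 times the lowest for Magel2 and 4.49 times for Peg10, but 1.43 times for Sgce and 1.41 times for each of Snrpn and Impact.

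**Figure D1:**
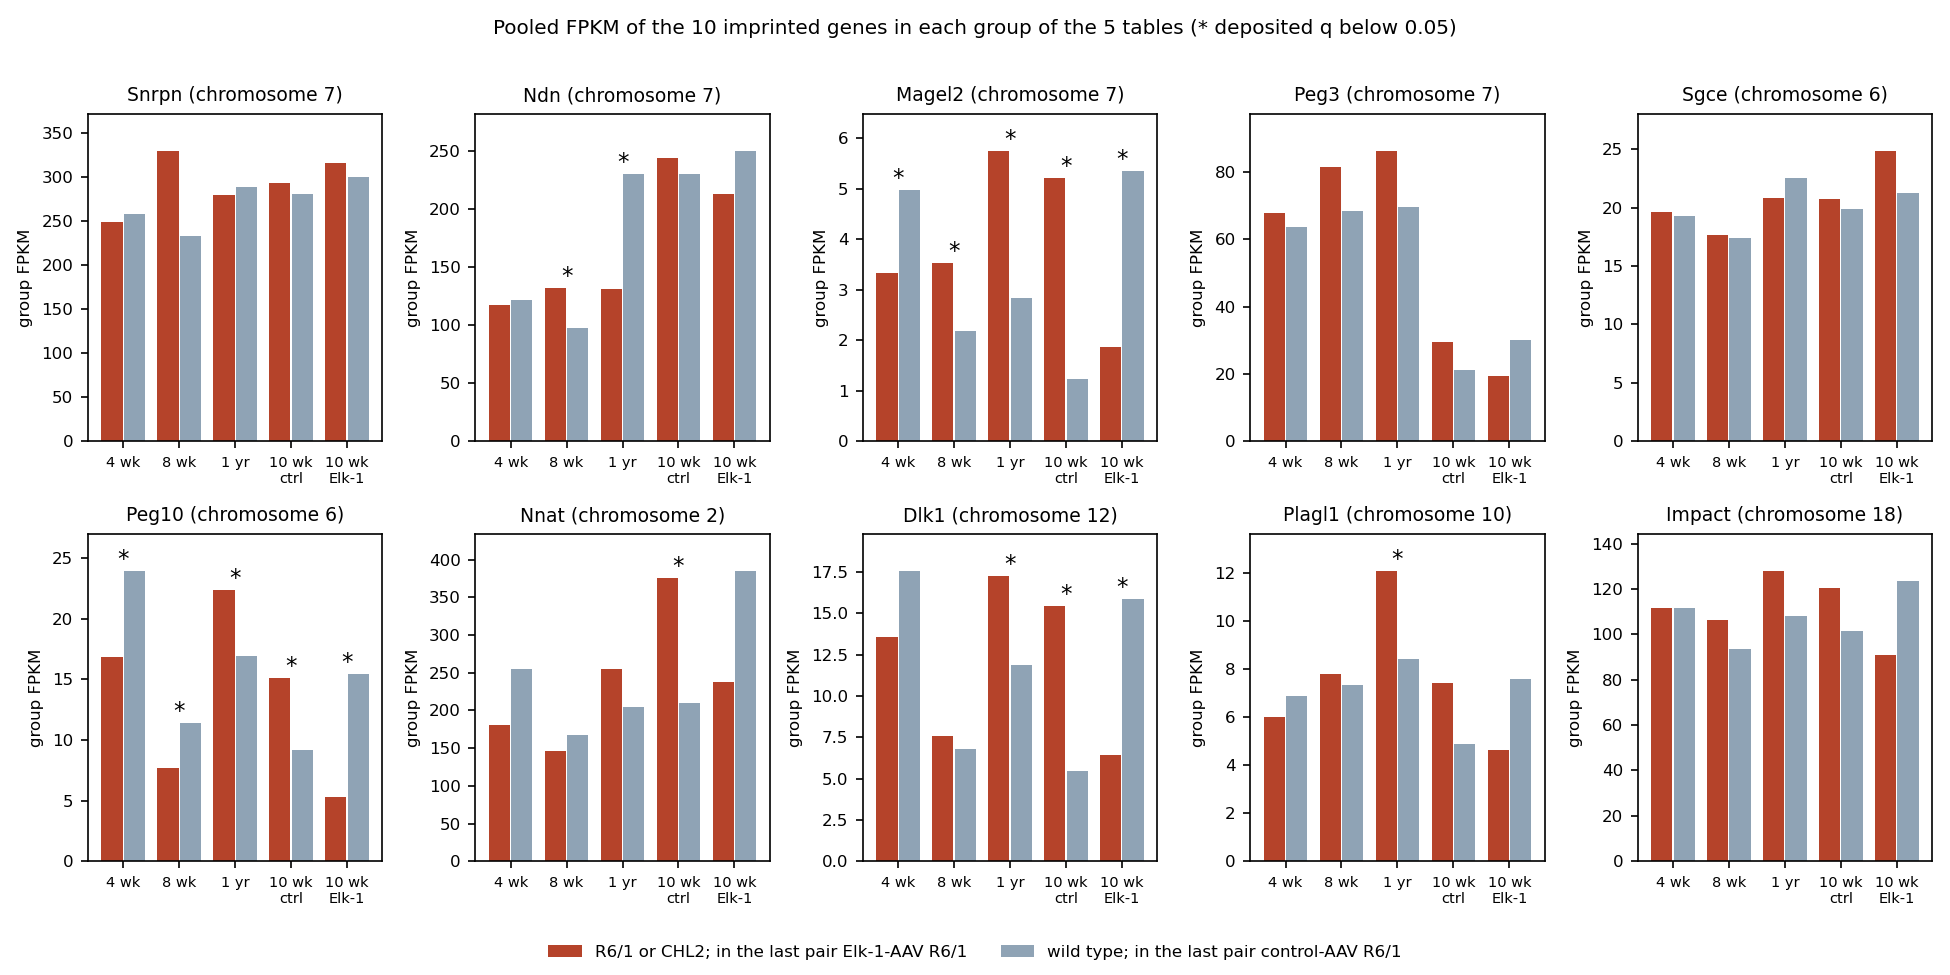
Pooled group FPKM (vertical axes, linear and starting at 0, each gene on its own scale) of the 10 imprinted genes in the 5 tables: the red bar is R6/1 or CHL2 beside its grey wild type bar, and in the last pair Elk-1-AAV R6/1 beside control-AAV R6/1. A star marks a deposited q below 0.05. Magel2 and Peg10 have one in all 5 pairs, while the bars of Snrpn, Sgce and Impact have none. Peg3 is lower in all 10-week groups (19.4 to 30.1 FPKM) than in the others (63.7 to 86.0 FPKM), but age, vector and table differ together there and cannot be told apart.

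A gene is called changed below where the deposited q, the authors' p-value adjusted over all genes of the table, is below 0.05. That test uses the spread between libraries, but the libraries' own values are not in the tables. In 4-week mice, 2 of the 10 genes were called, Magel2 and Peg10, both lower in R6/1. Of all 14539 genes at 4 weeks, 0.468% were called, 0.275% higher and 0.193% lower. In 8-week mice 3 were called, Magel2 and Ndn higher and Peg10 lower in R6/1, where 6.12% of 14320 genes were called, 0.789% higher and 5.34% lower. In 1-year mice 5 were called, Magel2, Dlk1, Plagl1 and Peg10 higher and Ndn lower in CHL2, where 3.65% of 14402 genes were called, 1.67% higher and 1.97% lower. In control-AAV R6/1 mice 4 were called, Magel2, Dlk1, Nnat and Peg10, all higher than in control-AAV wild type, where 3.24% of 12980 genes were called, 0.724% higher and 2.51% lower. In Elk-1-AAV R6/1 mice 3 were called, Magel2, Dlk1 and Peg10, all lower than in control-AAV R6/1, where 0.575% of 12701 genes were called, 0.299% higher and 0.276% lower. The control-AAV R6/1 libraries enter both 10-week tables, so a chance deviation in them would move both with opposite signs. Their pooled values were the same in both tables up to a scale of 1.02.

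**Figure D2:**
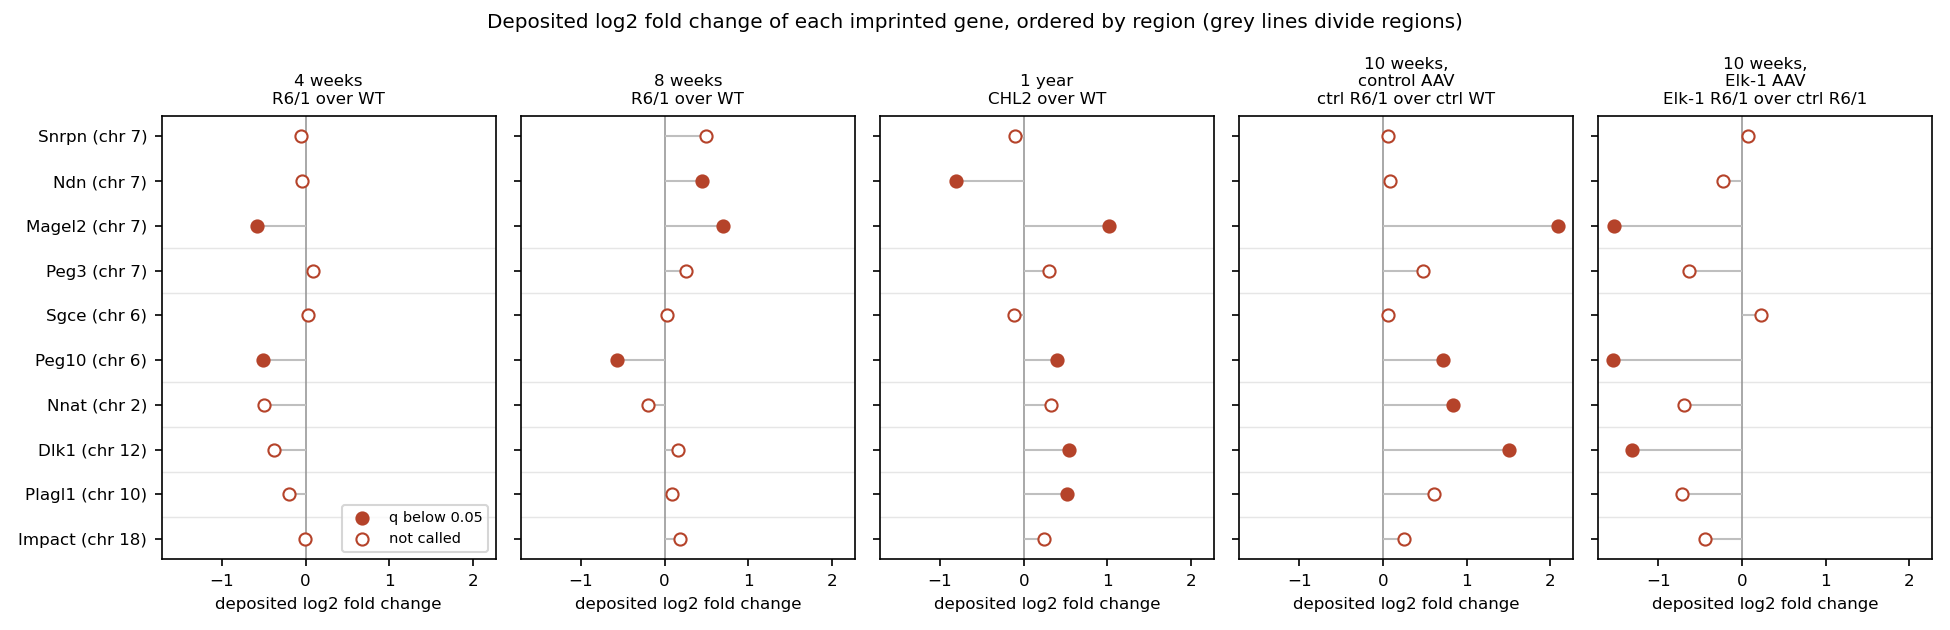
Log2 fold change from the authors' deposited tables (horizontal axis) of each of the 10 genes, 1 panel per table, each headed by the group on top of the fold over the group below it. Filled points have a deposited q below 0.05: Magel2 and Peg10 are filled in every panel, on both sides of 0, and Peg3, Sgce, Snrpn and Impact in none.

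Magel2, whose human gene is mutated in Schaaf-Yang syndrome, was called in every table. At 4 weeks it had 3.33 FPKM in R6/1, against 4.97 FPKM in wild type (log2 fold −0.58, q = 0.0145 in the authors' deposited table). At 8 weeks it had 3.53 FPKM in R6/1, against 2.18 FPKM in wild type (log2 fold 0.70, q = 0.0101 in the authors' deposited table). At 1 year it had 5.73 FPKM in CHL2, against 2.83 FPKM in wild type (log2 fold 1.02, q = 0.00303 in the authors' deposited table). It was thus lower in R6/1 at 4 weeks and higher in the model at 8 weeks and 1 year. The difference between ages was not tested, and the 4-week and 8-week tables rest on separate wild types whose own values were 4.97 and 2.18 FPKM. At 10 weeks Magel2 had 5.22 FPKM in control-AAV R6/1, against 1.23 FPKM in control-AAV wild type, a 4.25-fold higher level (log2 fold 2.09, q = 0.00312 in the authors' deposited table). Magel2 in Elk-1-AAV R6/1 had 1.86 FPKM, against 5.34 FPKM in control-AAV R6/1 (log2 fold −1.52, q = 0.0122 in the authors' deposited table). The wild type with control AAV had the lowest Magel2 value of the 9 groups.

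Ndn, which encodes necdin, moved otherwise than its neighbour. At 1 year it had 131 FPKM in CHL2, against 230 FPKM in wild type (log2 fold −0.81, q = 0.00303 in the authors' deposited table), in the same table in which Magel2 rose. In the other groups without a vector, CHL2 included, Ndn had 97.2 to 132 FPKM, with each table normalised separately. At 8 weeks it rose to 132 FPKM in R6/1, against 97.2 FPKM in wild type (log2 fold 0.44, q = 0.0129 in the authors' deposited table). In the other tables it was not called: 118 FPKM in R6/1 and 122 FPKM in wild type at 4 weeks, 244 FPKM in control-AAV R6/1 and 230 FPKM in control-AAV wild type, and 213 FPKM with Elk-1-AAV and 249 FPKM in control-AAV R6/1. So at 1 year both genes were called with opposite signs, and at 8 weeks with the same sign; a difference between the genes was not itself tested.

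Snrpn was not called in any table. It had 249 FPKM in R6/1 and 258 FPKM in wild type at 4 weeks, and 280 FPKM in CHL2 and 289 FPKM in wild type at 1 year. At 10 weeks it had 293 FPKM in control-AAV R6/1 and 281 FPKM in control-AAV wild type, and 316 FPKM with Elk-1-AAV and 300 FPKM in control-AAV R6/1. At 8 weeks it had 329 FPKM in R6/1 and 233 FPKM in wild type (log2 fold 0.50, q = 0.458 in the authors' deposited table). Snurf, an upstream reading frame on the same transcripts, has its own row at the same listed position. At 8 weeks Snurf was given 16.5 FPKM in R6/1 and 65.9 FPKM in wild type, so it held 4.77% of the summed Snrpn and Snurf level in R6/1 and 22.0% in wild type. Summed, both had 346 FPKM in R6/1 and 299 FPKM in wild type, a log2 ratio of 0.21. In the control-AAV table the sum was 346 FPKM in R6/1 and 372 FPKM in wild type, with a log2 ratio of −0.11, opposite in sign to that of the Snrpn row alone.

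Of 7 further listed genes of the Prader-Willi region with a row at 1 year, 1 was called, D7Ertd715e, at 9.64 FPKM in CHL2 and 6.63 FPKM in wild type (log2 fold 0.54, q = 0.0262 in the authors' deposited table). None of these neighbours was called in the other tables. Ube3a, the ubiquitin ligase expressed from the maternal copy in neurons, had 19.5 FPKM in CHL2 and 14.7 FPKM in wild type (q = 0.0687 in the authors' deposited table). Mkrn3, which lies 35951 bases beyond Magel2, was at or below 1.37 FPKM in every group in which it has a row.

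Peg10 was the other gene called in every table. At 4 weeks it fell to 16.8 FPKM in R6/1, against 23.9 FPKM in wild type (log2 fold −0.51, q = 0.0145 in the authors' deposited table). At 8 weeks it fell to 7.68 FPKM in R6/1, against 11.4 FPKM in wild type (log2 fold −0.57, q = 0.00160 in the authors' deposited table). At 1 year it rose to 22.3 FPKM in CHL2, against 16.9 FPKM in wild type (log2 fold 0.40, q = 0.0329 in the authors' deposited table). Unlike Magel2, Peg10 was lower in R6/1 at both early ages. At 10 weeks it had 15.1 FPKM in control-AAV R6/1, against 9.17 FPKM in control-AAV wild type (log2 fold 0.72, q = 0.0300 in the authors' deposited table). Its level in Elk-1-AAV R6/1 was 5.33 FPKM, against 15.4 FPKM in control-AAV R6/1 (log2 fold −1.54, q = 0.0122 in the authors' deposited table).

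Sgce, the neighbour of Peg10 at 100 bases, was called in no table. Its levels were 19.7 FPKM in R6/1 and 19.3 FPKM in wild type at 4 weeks, and 17.7 FPKM in R6/1 and 17.4 FPKM in wild type at 8 weeks. At 1 year it had 20.8 FPKM in CHL2 and 22.5 FPKM in wild type. At 10 weeks it had 20.8 FPKM in control-AAV R6/1 and 19.8 FPKM in control-AAV wild type, and 24.8 FPKM with Elk-1-AAV and 21.3 FPKM in control-AAV R6/1. The smallest q of Sgce in the authors' deposited tables was 0.840, and its fold changes there ran from −0.11 to 0.22 on the log2 scale, against −1.54 to 0.72 for Peg10.

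Among the other genes of this region on chromosome 6, Casd1, 30967 bases from Sgce, was called in no table and ranged from 23.0 to 29.1 FPKM. Calcr, the calcitonin receptor, had 2.02 FPKM in CHL2 and 1.06 FPKM in wild type (log2 fold 0.93, q = 0.00750 in the authors' deposited table). Calcr also had 2.60 FPKM in control-AAV R6/1 and 0.541 FPKM in control-AAV wild type (log2 fold 2.27, q = 0.0251 in the authors' deposited table). With Elk-1-AAV it had 0.656 FPKM, against 2.66 FPKM in control-AAV R6/1 (log2 fold −2.02, q = 0.0435 in the authors' deposited table). Asb4, a subunit of a ubiquitin ligase, was called at 1 year, with 1.56 FPKM in CHL2 and 0.595 FPKM in wild type (log2 fold 1.39, q = 0.00303 in the authors' deposited table). Ppp1r9a, which encodes the actin-binding protein neurabin, moved the other way at 8 weeks, with 60.5 FPKM in R6/1 and 91.9 FPKM in wild type (log2 fold −0.60, q = 0.00556 in the authors' deposited table). Among these calls, Calcr and Asb4 were higher in CHL2 and Calcr in control-AAV R6/1. Ppp1r9a at 8 weeks and Calcr with Elk-1-AAV were lower.

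**Figure D3:**
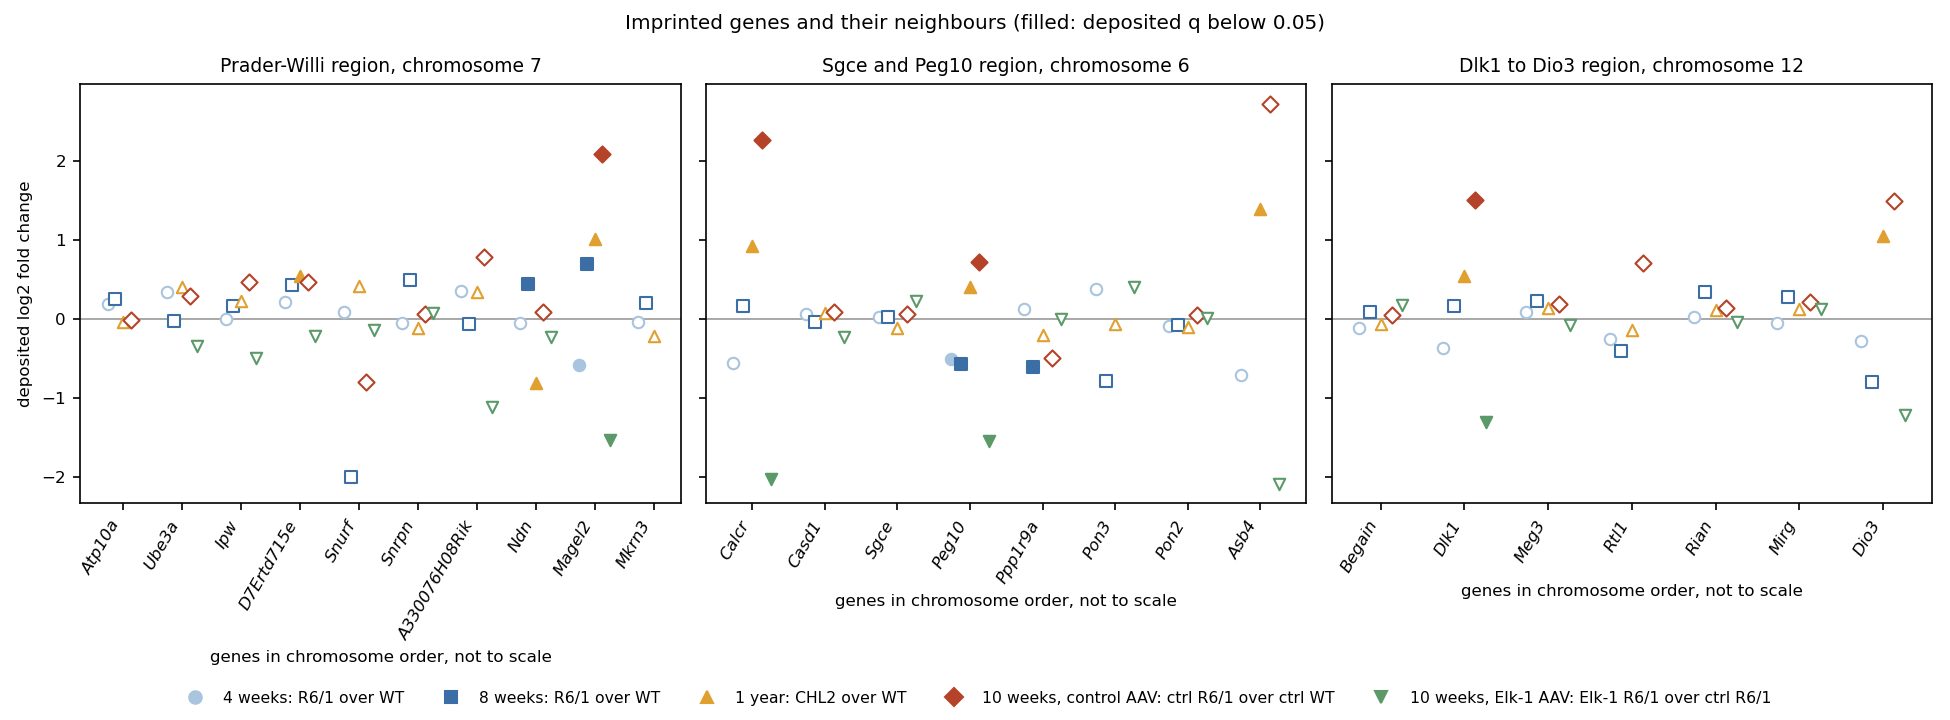
Log2 fold change from the authors' deposited tables (vertical axis) of the imprinted genes and their listed neighbours in 3 regions, in chromosome order and not to scale, with 1 symbol per table. Filled symbols have a deposited q below 0.05: in each region the symbols of some genes (Magel2, Peg10, Calcr, Dlk1) spread over 1 log2 unit or more, while those of Sgce, Casd1, Meg3, Rian and Mirg stay between −0.22 and 0.35.

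Dlk1 was called in 3 tables. At 1 year it rose to 17.2 FPKM in CHL2, against 11.9 FPKM in wild type (log2 fold 0.54, q = 0.00303 in the authors' deposited table). At 10 weeks it had 15.5 FPKM in control-AAV R6/1, against 5.45 FPKM in control-AAV wild type (log2 fold 1.50, q = 0.00312 in the authors' deposited table). Dlk1 in Elk-1-AAV R6/1 had 6.40 FPKM, against 15.8 FPKM in control-AAV R6/1 (log2 fold −1.31, q = 0.0122 in the authors' deposited table). It was not called at 4 weeks, with 13.6 FPKM in R6/1 and 17.5 FPKM in wild type, nor at 8 weeks, with 7.60 FPKM in R6/1 and 6.80 FPKM in wild type. Among untreated wild types its level was 17.5 FPKM at 4 weeks, 6.80 FPKM at 8 weeks and 11.9 FPKM at 1 year.

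The maternally expressed non-coding RNAs of the same domain, Meg3, Rian and Mirg, were called in no table. Meg3, 77658 bases from Dlk1, had 612 FPKM in CHL2 and 555 FPKM in wild type at 1 year, and 363 FPKM in control-AAV R6/1 and 317 FPKM in control-AAV wild type. Dio3, which encodes the deiodinase that inactivates thyroid hormone and is also paternally expressed, rose to 2.66 FPKM in CHL2, against 1.29 FPKM in wild type (log2 fold 1.05, q = 0.00932 in the authors' deposited table). In the control-AAV table Dio3 had 2.07 FPKM in R6/1 and 0.739 FPKM in wild type without passing the test (q = 0.414 in the authors' deposited table).

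Nnat was called in 1 table. At 10 weeks it had 375 FPKM in control-AAV R6/1, against 209 FPKM in control-AAV wild type (log2 fold 0.84, q = 0.0188 in the authors' deposited table). With Elk-1-AAV it had 238 FPKM, against 384 FPKM in control-AAV R6/1, which did not pass (log2 fold −0.69, q = 0.296 in the authors' deposited table). It had 181 FPKM in R6/1 and 254 FPKM in wild type at 4 weeks (q = 0.127 in the authors' deposited table). At 8 weeks it had 146 FPKM in R6/1 and 168 FPKM in wild type, and at 1 year 255 FPKM in CHL2 and 205 FPKM in wild type. Nnat lies inside an intron of Blcap, and both rows share a listed position. Blcap was called in no table and had 89.3 FPKM in control-AAV R6/1 and 68.9 FPKM in control-AAV wild type.

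Peg3 was called in no table. It had 67.8 FPKM in R6/1 and 63.7 FPKM in wild type at 4 weeks, 81.5 FPKM in R6/1 and 68.4 FPKM in wild type at 8 weeks, and 86.0 FPKM in CHL2 and 69.6 FPKM in wild type at 1 year. At 10 weeks it had 29.4 FPKM in control-AAV R6/1 and 21.1 FPKM in control-AAV wild type. With Elk-1-AAV it had 19.4 FPKM, against 30.1 FPKM in control-AAV R6/1, the nearest it came to passing (log2 fold −0.63, q = 0.0756 in the authors' deposited table). Its antisense RNA Peg3as has a row at the same position, and reads of both cannot be told apart, since the strand of the counting is not given. Summed, both had 27.9 FPKM with Elk-1-AAV and 36.9 FPKM in control-AAV R6/1, a log2 ratio of −0.41, of which Peg3as held 30.2% with Elk-1-AAV and 18.5% in control-AAV R6/1. In the control-AAV table the sum gave a log2 ratio of 0.30, against 0.48 for the Peg3 row alone in the authors' deposited table. Usp29, whose listed span lies 320 bases away, was not called, with 7.36 FPKM with Elk-1-AAV and 10.8 FPKM in control-AAV R6/1. Zim1, a maternally expressed zinc finger gene of this region, rose at 1 year to 3.97 FPKM in CHL2, against 2.23 FPKM in wild type (log2 fold 0.83, q = 0.00303 in the authors' deposited table).

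Plagl1 was called at 1 year, with 12.1 FPKM in CHL2, against 8.44 FPKM in wild type (log2 fold 0.52, q = 0.00303 in the authors' deposited table). It had 7.43 FPKM in control-AAV R6/1 and 4.87 FPKM in control-AAV wild type (q = 0.214 in the authors' deposited table). With Elk-1-AAV it had 4.62 FPKM, against 7.61 FPKM in control-AAV R6/1 (q = 0.160 in the authors' deposited table). Impact (chr18:13130760-13151457) was not called, with 128 FPKM in CHL2 and 108 FPKM in wild type at 1 year, and 90.8 FPKM with Elk-1-AAV and 123 FPKM in control-AAV R6/1. At 4 weeks its values were nearly equal, at 111 FPKM in R6/1 and 112 FPKM in wild type.

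Across the regions, 17 of the 50 gene and table pairs were called, and 6 genes held all of them. Over all genes, 0.468%, 6.12%, 3.65%, 3.24% and 0.575% were called in the 5 tables. The 6 lie in 5 of the 7 regions, and the regions of Peg3 and Impact had none. The region with Snrpn, Ndn and Magel2 and the region with Sgce and Peg10 each held both a gene called in all 5 tables and a gene called in none. As a description of the 10 genes together, their median change on the log2(FPKM + 1) scale was −0.11 at 4 weeks, 0.16 at 8 weeks, 0.31 at 1 year, 0.49 in control-AAV R6/1 and −0.61 with Elk-1-AAV. The medians over all genes of these tables lay between 0.0011 and 0.014.

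Beyond the 10 genes, 81 further imprinted genes were listed and 61 have a row. Whether each of them is imprinted in striatum was not tested. At 4 weeks 1 of 59 was called, beside 0.468% of all genes: the chloride channel gene Ano1, with 1.32 FPKM in R6/1 and 2.07 FPKM in wild type (log2 fold −0.65, q = 0.0145 in the authors' deposited table). At 8 weeks 4 of 59 were called, a share close to the 6.12% of all genes and so no result about imprinted genes. Grb10, an adaptor that restrains insulin signalling, and Sfmbt2, a Polycomb protein gene, were higher in R6/1, while Igf2, a fetal growth factor, and Ppp1r9a were lower. Sfmbt2 had 2.84 FPKM in R6/1 and 1.26 FPKM in wild type (log2 fold 1.17, q = 0.00160 in the authors' deposited table), and Grb10 had 20.4 FPKM in R6/1 and 15.5 FPKM in wild type. At 1 year, where 3.65% of all genes were called, 9 of 61 were higher in CHL2 (Asb4, Calcr, D7Ertd715e, Dcn, Dio3, Eif2c2, Kcnk9, Zdbf2 and Zim1) and 1 was lower, Gatm, an enzyme of creatine synthesis, with 91.1 FPKM in CHL2 and 119 FPKM in wild type. Zdbf2, a paternally expressed zinc finger gene, had 8.12 FPKM in CHL2 and 5.19 FPKM in wild type (log2 fold 0.65, q = 0.00303 in the authors' deposited table). Kcnk9, a potassium channel gene expressed from the maternal copy in brain, had 16.2 FPKM in CHL2 and 10.9 FPKM in wild type. Eif2c2, which encodes the Argonaute protein AGO2, had 12.6 FPKM in CHL2 and 9.29 FPKM in wild type.

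At 10 weeks 4 of 53 were higher in control-AAV R6/1, Calcr, Dcn, Igf2 and Zdbf2, and none was lower, beside 0.724% of all genes called higher and 2.51% lower. Igf2 had 35.7 FPKM in control-AAV R6/1, 2.98 times its level in control-AAV wild type (log2 fold 1.57, q = 0.00312 in the authors' deposited table). At 8 weeks it was lower, with 18.0 FPKM in R6/1 and 26.2 FPKM in wild type (log2 fold −0.54, q = 0.0385 in the authors' deposited table). Igf2 is known in adult brain from the choroid plexus and meninges. The choroid plexus markers had the same directions, with a sum of 1898 FPKM in control-AAV R6/1 and 501 FPKM in control-AAV wild type, and of 804 FPKM in R6/1 and 1939 FPKM in wild type at 8 weeks. The sums of the meninges markers also had these directions. They were 126 FPKM in control-AAV R6/1 and 60.7 FPKM in control-AAV wild type, and 40.6 FPKM in R6/1 and 50.5 FPKM in wild type at 8 weeks. Gene by gene the meninges markers were less aligned at 8 weeks, where 9 of 10 had the higher value in R6/1, with a median difference of 0.17 in log2(FPKM + 1). In control-AAV R6/1 all 10 had the higher value, with a median of 0.97. At 1 year Igf2 and the choroid plexus sum differed in direction. The sum was 1232 FPKM in CHL2 and 1650 FPKM in wild type, and the uncalled log2 fold of Igf2 was 0.12. At 4 weeks and with Elk-1-AAV both were higher, with Igf2 uncalled. The part of either list in the Igf2 values was not tested. Dcn, which encodes the fibroblast proteoglycan decorin, had 11.6 FPKM in control-AAV R6/1 and 4.55 FPKM in control-AAV wild type, and 13.9 FPKM in CHL2 and 4.41 FPKM in wild type at 1 year. With Elk-1-AAV 2 of 52 were called, beside 0.575% of all genes, and both were lower: Calcr and Zdbf2, with 2.99 FPKM for Zdbf2, against 4.95 FPKM in control-AAV R6/1 (log2 fold −0.72, q = 0.0302 in the authors' deposited table).

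Relatives of the 10 genes in other parts of the genome were read as a check on reads shared between similar genes. Snrpb, the relative of Snrpn that encodes SmB, had 49.0 FPKM in R6/1 and 47.9 FPKM in wild type at 8 weeks. Snrpb, Plagl2, Dlk2 and the MAGE family gene Maged1 were called in no table.

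Magel2, Dlk1, Peg10, Nnat and Calcr are expressed at high levels in the hypothalamus and nearby septal and preoptic areas, which lie close to the striatum, so markers of that tissue were read beside them. In these bulk samples, fewer cells of a type and less RNA per cell cannot be told apart. Of 18 listed markers of hypothalamus and septum, 14 have a row at 4 weeks, where 5 were called, all lower in R6/1 (Oxt, Trh, Zic1, Zic2 and Zic4), with a sum of 71.1 FPKM in R6/1 and 144 FPKM in wild type. At 8 weeks 1 of 14 was called, Avp, higher, and the sums were 44.5 FPKM in R6/1 and 31.7 FPKM in wild type. At 1 year 9 of 16 were called, all higher, with sums of 218 FPKM in CHL2 and 96.7 FPKM in wild type. Magel2, Dlk1 and Calcr had the same signs as these sums in the 3 tables. The log2 folds in the authors' deposited tables at 4 weeks, 8 weeks and 1 year were −0.37, 0.16 and 0.54 for Dlk1. Those for Calcr were −0.55, 0.16 and 0.93. Of these tables, Dlk1 and Calcr were called only at 1 year. Peg10 and Nnat differed in sign from the sums at 8 weeks, where Peg10 was called lower. There Nnat had 146 FPKM in R6/1 and 168 FPKM in wild type, and 9 of the 14 markers had the higher value in R6/1. Ndn, also among the 10 genes, was called higher at 8 weeks, like the sum, but lower at 1 year, opposite to the sum. The log2 folds of Ndn in the authors' deposited tables were 0.44 at 8 weeks and −0.81 at 1 year. They were 0.08 in control-AAV R6/1 and −0.23 with Elk-1-AAV, both uncalled.

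Of 16 of these markers in the control-AAV table, 8 were called, all higher, with sums of 491 FPKM in control-AAV R6/1 and 90.3 FPKM in control-AAV wild type. Of 15 in the Elk-1-AAV table, 3 were called, all lower (Avp, Oxt and Trh), with sums of 57.3 FPKM with Elk-1-AAV and 501 FPKM in control-AAV R6/1. Oxt, the oxytocin gene, had 110 FPKM in control-AAV R6/1, against 15.7 FPKM in control-AAV wild type. With Elk-1-AAV Oxt had 9.04 FPKM, against 112 FPKM in control-AAV R6/1. Pmch, which encodes melanin-concentrating hormone of the lateral hypothalamus, had 108 FPKM in control-AAV R6/1 and 1.25 FPKM in control-AAV wild type. With Elk-1-AAV Pmch had 0.192 FPKM, against 111 FPKM in control-AAV R6/1. The pool of 2 control-AAV R6/1 libraries thus had the higher sum in both tables, and the values of its 2 libraries cannot be separated. The markers' part in the changes of the imprinted genes was not tested, and no marker of this list is at 0 in either group of a table.

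**Figure D4:**
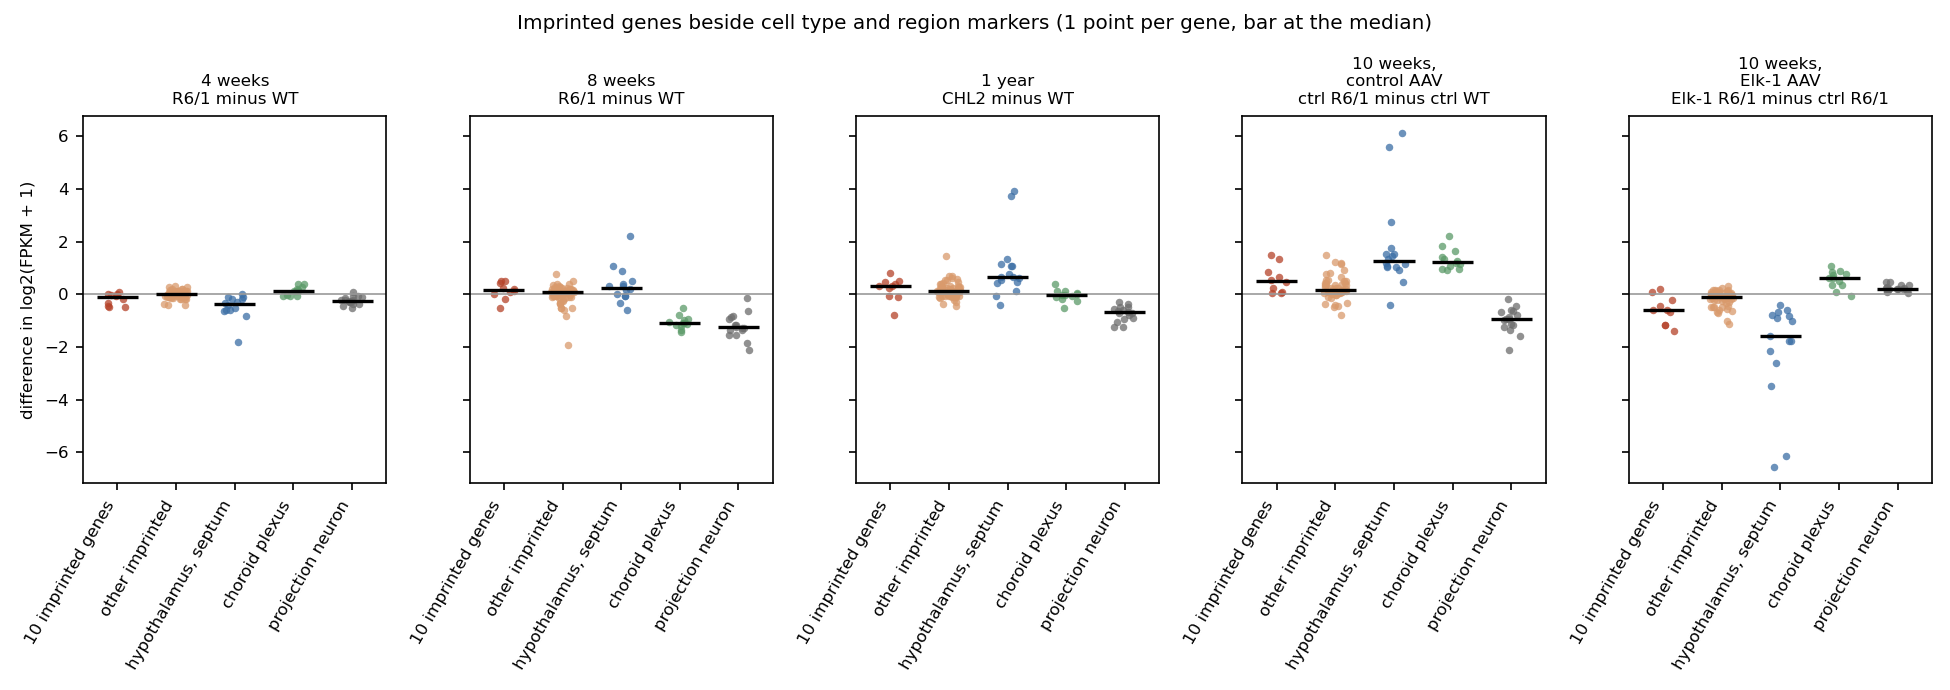
Difference in log2(FPKM + 1), with the groups in the order of each panel's heading (vertical axis), of each gene of 5 lists, with a bar at the list's median. The medians of the 10 imprinted genes are −0.11, 0.16, 0.31, 0.49 and −0.61 and those of the hypothalamus and septum markers −0.37, 0.25, 0.65, 1.28 and −1.58, but single genes lie on the other side of 0, among them Peg10 at 8 weeks and Ndn at 1 year.

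Striatum is the tissue given in the labels. Markers of striatal projection neurons were present in every group, but pooled values cannot show the tissue of each library. The 16 genes of striatal projection neurons summed to 3071 FPKM in R6/1 and 3843 FPKM in wild type at 4 weeks, and to 1740 FPKM in R6/1 and 4385 FPKM in wild type at 8 weeks. At 8 weeks 15 of the 16 were called lower, as were 15 in CHL2 and 13 in control-AAV R6/1, and none was called with Elk-1-AAV. Markers of meninges were called for 3 of 10 genes at 8 weeks (Aldh1a2 and Fmod higher and Igfbp2 lower in R6/1), for 2 of 9 in CHL2 and for 2 of 10 in control-AAV R6/1, all of these higher, and for none in the other tables. Dcn, counted above among the further imprinted genes, is also in the meninges list and among its calls in CHL2 and in control-AAV R6/1. Of 9 interneuron markers, 0, 4, 2, 3 and 1 were called in the 5 tables in the order given above, and of 8 markers of cortical excitatory neurons 0, 5, 0, 4 and 0. Of 6 oligodendrocyte markers 2 were called, both lower in CHL2, and of 6 microglia markers 2, both higher with Elk-1-AAV. None of 6 astrocyte markers was called in any table. Of 12 choroid plexus markers, 8 were called lower at 8 weeks, 7 higher in control-AAV R6/1 and 1 higher with Elk-1-AAV. Among the calls of the 10 imprinted genes at 8 weeks, in CHL2 and in control-AAV R6/1, Peg10 at 8 weeks and Ndn in CHL2 were lower, like the projection neuron genes. The others of these calls were higher. Of the further imprinted genes, Igf2 and Ppp1r9a at 8 weeks and Gatm in CHL2 were also called lower. Whether the level of the imprinted genes per cell changed was not tested.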

How the data were processed

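RNA from mouse striatum was made into TruSeq libraries, per the labels' protocols. Cuffdiff, Cufflinks, TopHat and Bowtie and the build mm9 are named, without versions, in the submitters' processing notes. Strand and annotation are not stated there. The 5 tables have no headers. For every gene each gives the authors' pooled FPKM of both groups, the authors' deposited log2 fold change, a deposited test score, and a deposited p-value and its q-value. The lowest deposited p-value is 5e-05. Depth is unknown, and no column holds a library, so SDs, intervals and the planned limma fit were not possible. Whether libraries are separate animals is not stated, so the spread between libraries behind the p-values may be technical. How Cuffdiff estimated that spread cannot be seen in the pooled values.

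The members and gene lists were chosen with earlier results of these data known. All 10 members, every other imprinted gene called at a q below 0.05 and the nearest neighbours were to be named; pairs of groups come from the tables' own group names. Differences in log2(FPKM + 1) were computed with Python 3.11.15 and pandas 2.3.3, which understates changes of low genes. The adjustment and length centring were tested on simulated data. Between 11.5% and 13.3% of rows share a listed position with another gene, so their values may hold the same reads. Promoter windows come from RefSeq. Alternatives were a q below 0.01, adjustment over genes whose mean FPKM reached 1, rows without shared positions, a pseudocount of 0.1, centring on all genes or on 10 bins of transcript length, and rescaling without small RNA rows.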

Additional observations from a re-analysis of the deposited data

How the results depend on the processing

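At a deposited q below 0.01 in place of 0.05, 0 of the 10 genes were called at 4 weeks, 1 at 8 weeks, 4 at 1 year, 2 in control-AAV R6/1 and 0 with Elk-1-AAV. The lowest q in the 4-week and Elk-1-AAV tables is 0.0145 and 0.0122, so no gene could pass 0.01 there. Of the other imprinted genes, 0, 2, 6, 1 and 0 were then called in the same order of tables. For 8 weeks, 1 year and control-AAV R6/1 the share of all genes called at 0.01 was not computed. These counts can therefore not be read against it. Adjusting over genes whose mean FPKM reached 1 and keeping the threshold of 0.05 changed no count of the 10 genes or of the other imprinted genes. The counts of the marker lists were not recomputed. Leaving out rows with a shared position, also at 0.05, left 3 of the 10 in place of 4 in control-AAV R6/1. The members' medians kept their signs under the pseudocount, filter, centring and rescaling alternatives, with ranges of −0.13 to −0.079, 0.16 to 0.24, 0.27 to 0.39, 0.48 to 0.55 and −0.66 to −0.59.

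Of the 50 single changes, 8 moved by more than 0.1 with a pseudocount of 0.1, in Magel2, Peg10 and Dlk1 and all away from 0. Centring on genes of like transcript length moved 2, and Peg3 at 4 weeks became −0.027; the Spearman correlation of change with length across genes was 0.47 there. Rescaling without small RNA rows, which hold 6.90% to 28.1% of summed FPKM, turned the signs of Impact at 4 weeks and Snrpn at 1 year, both uncalled. Sums over rows with a shared position were alternatives chosen after seeing the data; that of Peg3 and Peg3as is given in the report, and that of Snrpn and Snurf gave 0.21 at 8 weeks and −0.11 in control-AAV R6/1. No paired analysis was possible because the tables hold pooled values, and for the same reason no replicate could be left out.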
